A study of Mus musculus with 19 samples.

Results

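Cholesterol synthesis was followed through 8 genes in bulk RNA of mouse cortex. The genes were Hmgcs1, Idi1, Fdft1, Sqle, Lss, Cyp51 and Dhcr7, which encode enzymes of the pathway, and Insig1, which encodes a protein that holds the pathway back. They were chosen by name from the 55487 genes of the deposited tables, with earlier results of these data known. All 8 passed the filter on low counts. Their levels were compared between lemborexant and vehicle libraries, and between libraries with at least 1 CPM of Cst7 (CPM, read counts scaled to a common library size) and libraries below it. Cst7 encodes cystatin F, a protease inhibitor known as a marker of microglia that respond to disease.

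The brain makes nearly all of its own cholesterol, since lipoproteins of the blood do not cross the blood-brain barrier. The pathway builds mevalonate and then isoprenoid units, joins these into squalene, closes squalene into lanosterol and trims lanosterol to cholesterol. Its genes are switched on together by the transcription factor SREBP2, which is released from the endoplasmic reticulum when sterols run low and is held there by Insig proteins when sterols are plentiful. In adult brain, oligodendrocytes make cholesterol for myelin, astrocytes supply lipoprotein cholesterol to neurons, and neurons turn the excess into a hydroxylated sterol that leaves the brain.

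The 19 libraries came from male P301S/E4 mice aged 41 weeks, a model of tauopathy. The name is used in the field for mice with human tau carrying the P301S mutation on a background of human APOE4, and the labels give neither the promoter of the transgene nor whether libraries were pooled. In the 10 lemborexant libraries the mice had received 30 mg/kg of lemborexant, an antagonist of both orexin receptors used against insomnia, by gavage every day at zeitgeber time 13 h, between 7.5 and 9.5 months of age. In the 9 vehicle libraries the mice had received 0.5% methylcellulose on the same schedule. Every library therefore carried the same genotype, and no wild-type or untreated library was compared.

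Libraries held 20185098 to 31795633 estimated reads, and each of the 8 genes had at least 270 reads in every library. Lemborexant libraries 1 and 10, 3 and 8, and 4 and 9 were nearly alike, their counts differing by a chi-square of 3.08 to 3.66 for each degree of freedom, where the 168 remaining pairs gave 12.2 to 274. Tests were therefore also run on 16 units in which each of these pairs was summed. Cst7 stood at 16.4 to 144 CPM in 15 libraries and at 0 to 0.253 CPM in 4, namely lemborexant 1 and 10, which form a nearly alike pair, and vehicle 1 and 4. Neuronal markers were present in every library, as the cortex label implies, with a summed level of 10 markers of 3737 to 11390 CPM. Some markers of hippocampus, thalamus and striatum differed between treatments: of 11, 9 and 11 genes, 4 fell, 3 rose and 1 rose with lemborexant, where 1.65% of all genes fell and 0.953% rose. Of 9 hepatocyte markers, 6 were tested and 5 fell. On the TPM scale 1 hippocampal gene fell and 0 of the thalamic, striatal and hepatocyte markers passed, and with nearly alike pairs summed 0 markers of these 4 lists passed. The mean centred log2 CPM of the 6 tested hepatocyte markers was 5.98 in vehicle 7 and between -1.71 and 1.1 in the other 18 libraries. Without vehicle 7 and lemborexant 7, 0 of the 8 cholesterol genes passed for treatment, with log2 changes of -0.24 to 0.34. Nothing in the labels says that libraries came from separate animals, and the spread behind each p-value is that between libraries, which may be technical.

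Levels between genes are compared per transcript length. On the deposited TPM scale the mean level over 19 libraries was 74.5 ± 30.2 (SD) for Hmgcs1, 43.9 ± 16.3 for Fdft1, 36.0 ± 11.6 for Insig1, 23.5 ± 8.66 for Sqle, 21.1 ± 7.27 for Idi1, 18.96 ± 7.13 for Cyp51, 13.5 ± 3.70 for Dhcr7 and 7.70 ± 2.81 for Lss. Fdft1 and Insig1, Sqle and Idi1, and Idi1 and Cyp51 each differed by less than the SD of either gene, whereas Hmgcs1 lay above Fdft1, and Dhcr7 above Lss, by more than the SD of either. These SDs are between libraries, and the differences between genes within a library were not tested. The spread between libraries was wide for every gene: the highest CPM exceeded the lowest 2.10-fold for Cyp51 and 3.35-fold for Hmgcs1, with the other genes between.

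The promoters of the genes are shown because the genes varied together between libraries and because SREBP2 is known to bind a short sterol element near their starts. RefSeq (GRCm38.p6) gave promoter windows for 6 of the 8 genes, 8 windows in all, and Sqle and Fdft1 are named only. The sequences run 5′ to 3′ on the gene's strand over the bases 250 to 51 before the start, with capitals for the sterol motif TCACNNCA or TCACCCCAC and for CCAAT on either strand.
Hmgcs1, chr13:119690101-119690300, plus strand: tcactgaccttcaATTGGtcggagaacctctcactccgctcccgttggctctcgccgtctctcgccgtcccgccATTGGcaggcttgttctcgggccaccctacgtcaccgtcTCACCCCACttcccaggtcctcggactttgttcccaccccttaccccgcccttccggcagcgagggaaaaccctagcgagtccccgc
Cyp51, chr5:4104748-4104947, minus strand: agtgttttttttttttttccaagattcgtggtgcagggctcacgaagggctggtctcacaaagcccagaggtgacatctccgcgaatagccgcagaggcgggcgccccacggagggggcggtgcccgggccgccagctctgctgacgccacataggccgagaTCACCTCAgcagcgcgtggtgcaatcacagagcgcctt
Insig1, chr5:28071162-28071361, plus strand: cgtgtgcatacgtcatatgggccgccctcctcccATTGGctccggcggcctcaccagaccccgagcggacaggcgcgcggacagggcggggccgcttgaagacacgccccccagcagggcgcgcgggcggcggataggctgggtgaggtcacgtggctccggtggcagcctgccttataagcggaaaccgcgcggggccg
The full element TCACCCCAC was found in 1 of the 8 windows, that of Hmgcs1, at the bases 137 to 129 before its start, and in 0.496% of all 32851 promoter windows of 250 bases. Its shorter form TCACNNCA, which the full element contains, was found in 4 of the 8 windows, of 3 genes (Hmgcs1, Cyp51 at the bases 88 to 81, and Dhcr7), and in 11.4% of all windows. CCAAT, the letters bound by NF-Y, was found in 6 of the 8 windows and in 33.8% of all windows. GGGCGG, the letters bound by Sp1, was found in 7 of the 8 and in 32.7% of all windows. Each of the 6 genes had both in at least 1 window, and both strands were searched for every motif. A match describes the letters and not a bound site, and the same holds for a gene without one.

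**Figure D1:**
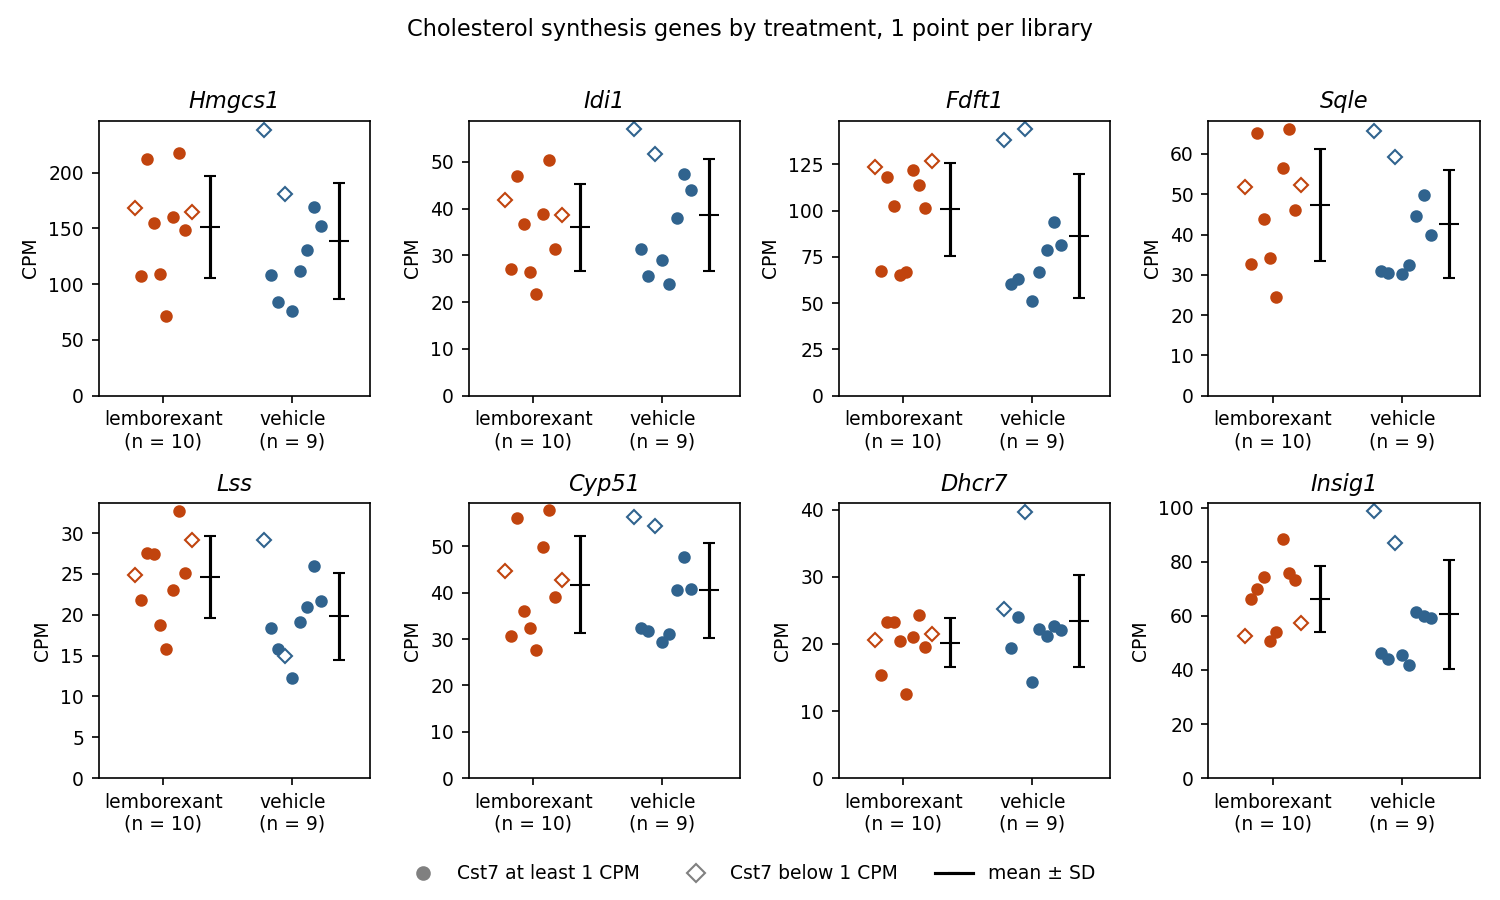
CPM (linear axis from 0) of the 8 genes, with 1 point per library, for 10 lemborexant and 9 vehicle libraries; bars give the mean ± SD, and open diamonds mark the 4 libraries with Cst7 below 1 CPM. The groups overlap for every gene, and Dhcr7 in vehicle 4 stands apart at 39.65 CPM.

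None of the 8 genes differed between lemborexant and vehicle past the threshold of an adjusted p of 0.05. edgeR's quasi-likelihood test over 19105 genes called 182 higher (0.953%) and 316 lower (1.65%), and 0 of 8 cholesterol genes in either direction. At an unadjusted p under 0.05 it again held 0 of the 8, against 4911 of all genes (25.7%). The median log2 change was 0.13 over the 8 genes and 0.03 over all genes tested. Of the 8, 6 lay above 0 in lemborexant, as did 53.6% of all genes. It was 8 of 8 on the deposited TPM scale, where 76.6% of all genes lay above 0. On that scale limma called 88 genes higher (0.53%) and 30 lower (0.181%) and 0 of the 8, whose median was 0.35 against 0.18 over all genes.

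Hmgcs1 (HMG-CoA synthase, chr13:119690379-119708260 on GRCm38) makes HMG-CoA at the head of the mevalonate steps. It lay at 71.1, 157 and 218 CPM (lowest, median and highest) in lemborexant libraries, against 75.6, 131 and 238 CPM in vehicle libraries. The ranges were almost the same, and the log2 change was 0.12 ± 0.22 (SE, adjusted p = 0.742). Idi1 (chr13:8885501-8892451) interconverts the isoprenoid units that the next enzymes join. Its lowest, median and highest levels were 21.7, 37.7 and 50.4 CPM with lemborexant and 23.8, 37.9 and 57.1 CPM with vehicle, with a log2 change of -0.10 ± 0.18 (adjusted p = 0.747).

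Fdft1 (squalene synthase, chr14:63145150-63179578) commits isoprenoids to sterols by making squalene. It ran over 65.2, 108 and 127 CPM in lemborexant libraries, against 51.0, 78.5 and 144 CPM in vehicle libraries, with a log2 change of 0.22 ± 0.20 (adjusted p = 0.488). Sqle (squalene epoxidase, chr15:59315077-59331192) adds the oxygen that allows ring closure and is a rate-limiting step after mevalonate. Its levels were 24.4, 48.9 and 66.2 CPM with lemborexant and 30.1, 40.0 and 65.8 CPM with vehicle, a log2 change of 0.15 ± 0.19 (adjusted p = 0.633). Lss (lanosterol synthase, chr10:76531588-76557138) closes the rings. It had the largest log2 change of the 8 in this fit, at 0.32 ± 0.15 (adjusted p = 0.195), with 15.9, 25.0 and 32.7 CPM in lemborexant libraries and 12.2, 19.1 and 29.1 CPM in vehicle libraries. For Lss alone the call depended on the tool: limma's voom with library weights gave 0.35 ± 0.11 (adjusted p = 0.0429), in a fit that called 6.01% of all genes higher and 5.77% lower.

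Cyp51 (chr5:4081145-4104746) removes a methyl group of lanosterol. It showed 27.5, 41.0 and 57.8 CPM in lemborexant libraries and 29.3, 40.6 and 56.4 CPM in vehicle libraries, and the log2 change was 0.04 ± 0.16 (adjusted p = 0.887). Dhcr7 (chr7:143823145-143848410) carries out the last step of one route to cholesterol, and its loss in people causes Smith-Lemli-Opitz syndrome. It lay at 12.5, 20.8 and 24.3 CPM with lemborexant, against 14.4, 22.2 and 39.6 CPM with vehicle. The log2 change was -0.21 ± 0.15 (adjusted p = 0.364), and without vehicle 4, which held the highest value, it was -0.08 ± 0.12. Insig1 (chr5:28071363-28078662), itself an SREBP2 target, anchors the SREBP complex in the endoplasmic reticulum. Its levels were 50.5, 68.1 and 88.4 CPM in lemborexant libraries and 41.9, 59.4 and 98.8 CPM in vehicle libraries, with a log2 change of 0.13 ± 0.16 (adjusted p = 0.620).

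**Figure D2:**
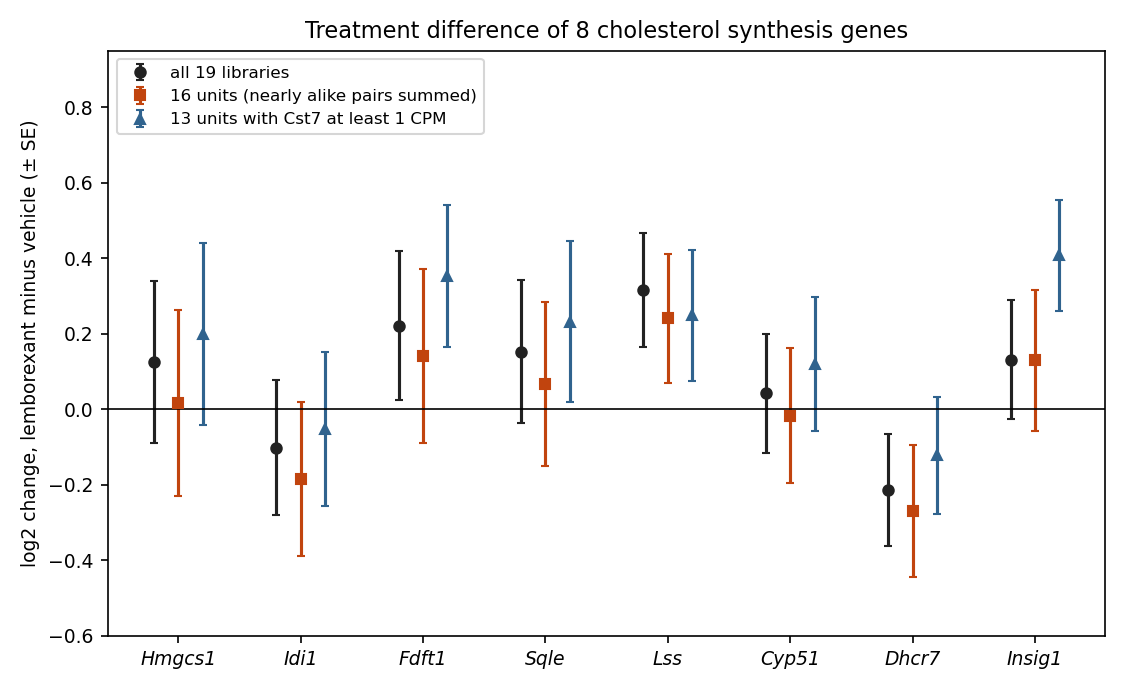
log2 change, lemborexant minus vehicle, with its SE, for the 8 genes in 3 fits: all 19 libraries, 16 units with nearly alike pairs summed, and the 13 units with Cst7 of at least 1 CPM. Changes ran between -0.27 and 0.41 over the fits, and no gene passed the threshold in any of them.

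With the 3 nearly alike pairs summed, edgeR called 0 of 19224 genes (4102, or 21.3%, at an unadjusted p under 0.05). DESeq2 on the 19 libraries called 2.29% of genes higher and 2.73% lower, and 0 of the 8. With pairs summed the log2 change of Cyp51 turned to -0.02 ± 0.18 and that of Hmgcs1 shrank to 0.02 ± 0.25. Among the 13 units with at least 1 CPM of Cst7 the largest change was that of Insig1, at 0.41 ± 0.15 (unadjusted p = 0.0143, adjusted p = 0.151 by edgeR), followed by Fdft1 at 0.35 ± 0.19 (adjusted p = 0.30). Neither passed, and edgeR called 0 genes of the whole table in that fit. On the same 15 libraries counted separately it called 1.06% of genes higher and 1.66% lower, and 0 of the 8.

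The other genes of the pathway gave the same count. Of 15 further genes of cholesterol synthesis, edgeR called 0 in either direction, with a median log2 change of 0.0025. The smallest p-values were those of Erg28 (-0.15 ± 0.07, but 0.06 ± 0.08 on the TPM scale), Lbr (0.20 ± 0.10) and Tm7sf2 (0.17 ± 0.13). On the TPM scale the median was 0.24 and limma called 1 of the 15 higher, Ebp, a sterol isomerase, at 0.35 ± 0.08 (adjusted p = 0.0489). Srebf2, the gene of SREBP2, gave -0.02 ± 0.12 (adjusted p = 0.925). Among 8 other SREBP2 targets, 9 regulators of SREBP, 13 genes of fatty acid synthesis, 9 of the isoprenoid branch and 10 of liver X receptor signalling and sterol efflux, 0 were called.

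One gene of sterol breakdown did pass. Of 6 genes of sterol hydroxylation, Cyp7b1, which hydroxylates oxysterols and is abundant in hippocampus, fell by 0.54 on the log2 scale (SE 0.12, adjusted p = 0.0274 by edgeR), with 16.01 ± 2.70 CPM in lemborexant libraries and 23.3 ± 4.42 CPM in vehicle libraries. The call was lost with nearly alike pairs summed (adjusted p = 0.0915) and on the TPM scale (limma, -0.29 ± 0.11, adjusted p = 0.101). Hippocampal markers moved in the same direction, with a summed level of 102 to 380 CPM in lemborexant libraries (median 211) and 333 to 505 CPM in vehicle libraries (median 357). With the hippocampal marker score as a covariate the change of Cyp7b1 was -0.42 ± 0.18 and did not pass (adjusted p = 0.435), in a fit where edgeR called 0 of 20446 genes (2219 at an unadjusted p under 0.05). The score itself nearly separated the treatments, at -1.39 to 0.444 with lemborexant and 0.378 to 0.868 with vehicle. This fit can therefore hardly tell treatment from the score for any gene, and the cause of the change of Cyp7b1 was not tested. Cyp46a1, the neuronal enzyme that makes the exported hydroxysterol, stood at 103 ± 28.5 CPM with lemborexant and 105 ± 14.2 CPM with vehicle (log2 change -0.02 ± 0.14, adjusted p = 0.933).

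**Figure D3:**
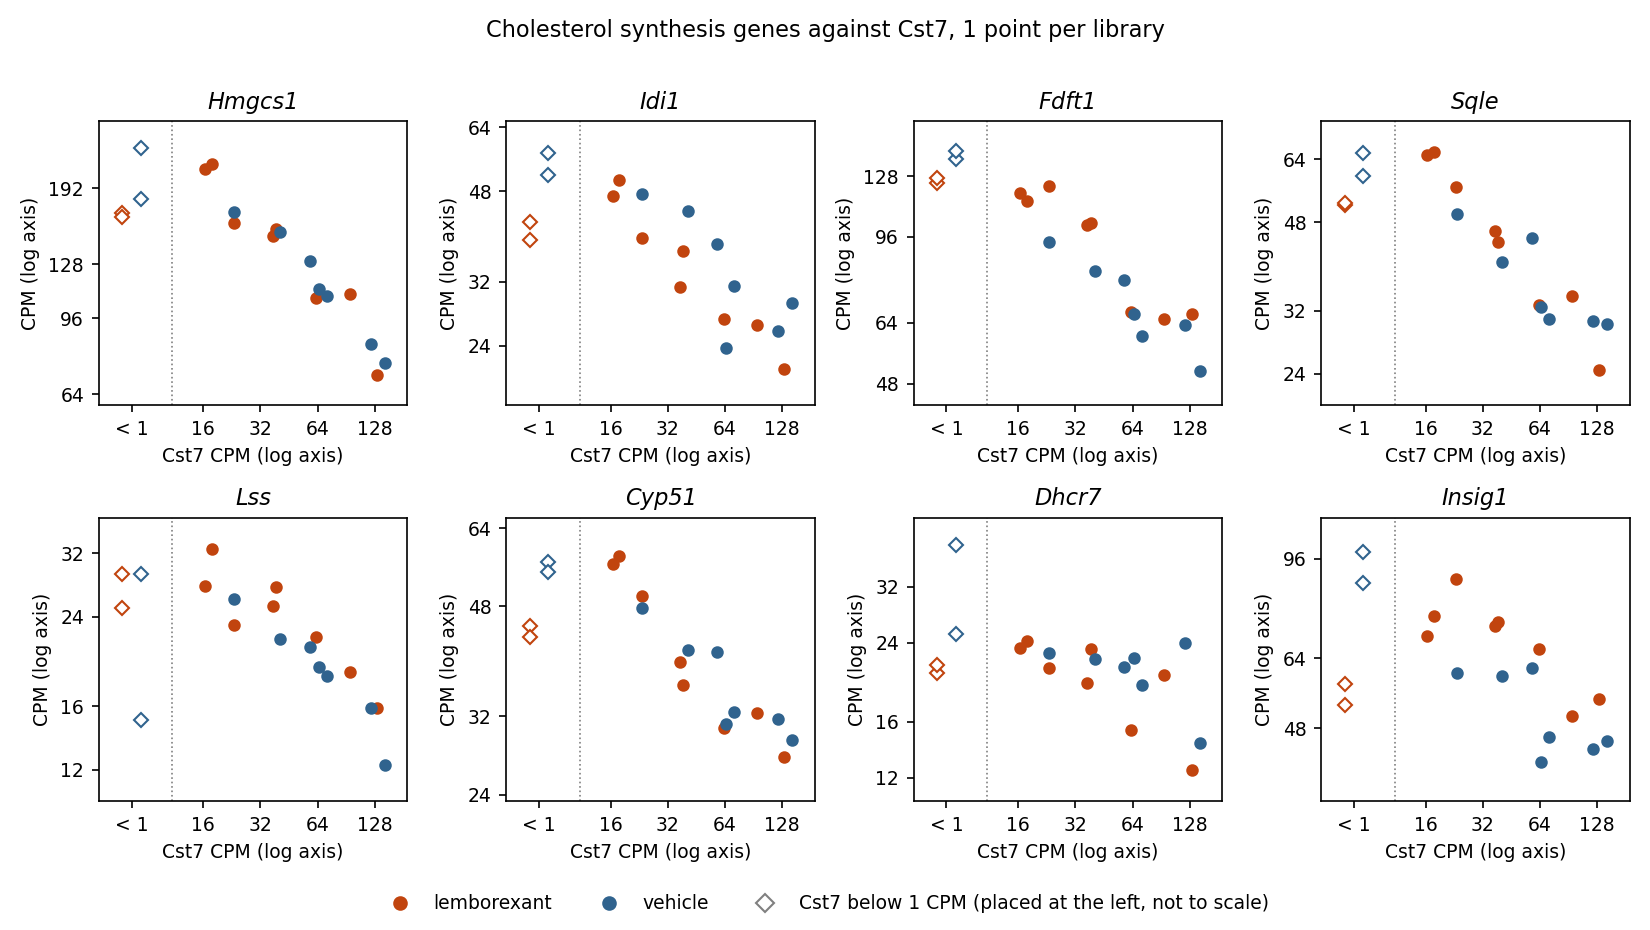
CPM of the 8 genes against CPM of Cst7 (log axes, 1 point per library, lemborexant and vehicle in different colours); the 4 libraries with Cst7 below 1 CPM sit left of the dotted line, not to scale. Among the 15 libraries right of the line, each gene runs lower as Cst7 runs higher, most tightly for Hmgcs1 and least for Dhcr7.

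The levels also differed between libraries of the same treatment. Fdft1 stood at 51.0, 78.5 and 122 CPM (lowest, median and highest) in the 15 libraries with at least 1 CPM of Cst7, against 124, 127, 138 and 144 CPM in lemborexant 1, lemborexant 10, vehicle 1 and vehicle 4. All 15 thus lay below all 4, which held for 1 of the 8 genes and for 2.27% of all genes tested, while 6.33% of all genes lay higher without overlap and 0 of the 8 did. The ratio of medians was 0.592. These sides were read from a measured gene and not from the labels, and 2 of the 4 libraries are a nearly alike pair, so the values are a description with no test.

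For the other genes the sides overlapped. Hmgcs1 had 71.1, 131 and 218 CPM in the 15 libraries, against 168, 165, 238 and 181 CPM in the 4, and 12 of the 15 lay below the lowest of the 4. For Sqle the values were 24.4, 40.0 and 66.2 CPM, against 51.9, 52.4, 65.8 and 59.3 CPM, again with 12 of 15 below. Cyp51 had 11 of 15 below and Idi1 had 10, with ratios of medians of 0.727 and 0.672. Dhcr7 (6 of 15 below, ratio 0.912), Insig1 (5 of 15, ratio 0.832) and Lss (1 of 15, ratio 0.802) separated least, and for Lss this turned on vehicle 4, which at 15.0 CPM held less than all but 1 of the 19 libraries. Every ratio of medians was below 1. The share of all genes with a ratio below 1, or with as many libraries below, is not given here. These counts therefore do not set the cholesterol genes apart from other genes.

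Markers of several cell types also differed between these sides. The summed level of 10 neuronal markers was 3737 to 9116 CPM (median 6862) in the 15 libraries and 10364 to 11390 CPM (median 10924) in the 4, without overlap. The sum of 11 disease-associated microglia markers other than Cst7, which made the sides, was 495 to 2402 CPM in the 15 and 155 to 198 CPM in the 4, and that of 7 reactive astrocyte markers was 3578 to 10544 CPM and 604 to 736 CPM. The median sum of 10 mature myelin genes was 10486 CPM in the 15 and 5489 CPM in the 4, with overlap. For 10 astrocyte markers the medians were 7854 and 5904 CPM. Those of 9 genes of precursor and newly formed oligodendrocytes were 326 and 198 CPM. In bulk RNA, fewer cells of a type and less RNA per cell cannot be told apart, and the part of cell make-up in these differences was not tested.

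Among the libraries that did hold Cst7, the cholesterol genes fell as Cst7 rose. The relation was fitted after the data had been seen, with edgeR over 13 units, as the log2 change per doubling of Cst7 with treatment as a second term. Over 20439 genes the fit called 3016 with a higher level at higher Cst7 (14.8%) and 2131 with a lower one (10.4%), and all 8 cholesterol genes were among the lower ones. For Dhcr7 the call was marginal and was lost in 25 of 30 alternatives, whereas those of Hmgcs1, Sqle, Idi1 and Cyp51 held in all 30. The median slope of the 8 was -0.33, against -0.02 over all genes. On the TPM scale limma called 1137 genes higher (6.84%) and 6362 lower (38.3%), with a median over all genes of -0.14, and all 8 were lower with a median of -0.50.

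Hmgcs1 was the steepest. It fell by 0.47 on the log2 scale per doubling of Cst7 (SE 0.04, adjusted p = 8.9e-06), that is, it fell by 27.8% at each doubling. Sqle fell by 0.39 ± 0.05 (adjusted p = 0.000167), Idi1 by 0.36 ± 0.05 (adjusted p = 0.000445) and Fdft1 by 0.34 ± 0.05 (adjusted p = 0.000236). Cyp51 fell by 0.32 ± 0.04 (adjusted p = 0.000202) and Lss by 0.31 ± 0.04 (adjusted p = 0.000295), so that Cyp51 fell by 19.7% and Lss fell by 19.6% at each doubling. Insig1 had a shallower slope of -0.22 ± 0.05 (adjusted p = 0.00784), and Dhcr7 the shallowest at -0.19 ± 0.07 (adjusted p = 0.0463).

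The extremes show the size of this. Hmgcs1 stood at 71.1 CPM in lemborexant 6 and at 75.6 CPM in vehicle 5, the libraries with the most Cst7 (131 and 144 CPM). It stood at 212 and 218 CPM in lemborexant 3 and 8, the libraries with the least on this side (16.4 and 17.7 CPM). Those 2 are a nearly alike pair, summed in the fit. Lemborexant 7 and vehicle 8, next with 23.2 and 23.3 CPM of Cst7, held 160 and 169 CPM of Hmgcs1. Sqle stood at 24.4 and 30.1 CPM in lemborexant 6 and vehicle 5, against 65.3 and 66.2 CPM in lemborexant 3 and 8. Dhcr7 stood at 12.5 and 14.4 CPM in the former, against 23.3 and 24.3 CPM in the latter, but held 24 CPM in vehicle 3 at 122 CPM of Cst7.

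Both treatments showed the fall. In the 7 vehicle units alone the slope of Hmgcs1 was -0.47 ± 0.05 (adjusted p = 0.000636 by edgeR), and 6 of the 8 genes were called lower, against 13.7% of all genes. In the 6 lemborexant units alone it was -0.47 ± 0.07 (adjusted p = 0.0226), and 4 of the 8 were called lower (Hmgcs1, Idi1, Sqle and Cyp51), against 0.273% of all genes lower and 1.88% higher. All 8 slopes were negative in each treatment, and a difference between the treatments' slopes was not tested. Among the 11 libraries numbered 1064 to 1602, one of the 2 number series in the labels, 6 of the 8 were called lower (4.76% of all genes, with 8.14% higher); the other series held too few libraries for a fit.

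Dhcr7 and Insig1 rested on few libraries. Without lemborexant 6 and vehicle 5, the units farthest from the median of Cst7, the slopes were -0.42 ± 0.05 for Hmgcs1 (adjusted p = 0.000438) and -0.08 ± 0.06 for Dhcr7 (adjusted p = 0.510), 6 of the 8 genes were called lower, and 0.97% of all genes were. Insig1 then had an adjusted p of 0.0623. Leaving out lemborexant 6 alone also ended the call of Dhcr7 (adjusted p = 0.20) and lowered the number of genes called to 2449, with 4.11% of all genes lower and 7.89% higher.

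The share of reads on ribosomal RNA genes, with mitochondrial ribosomal RNA counted in, moved with Cst7 and with much of the fit. It was 5.49%, 5.94% and 6.90% in lemborexant 6, vehicle 3 and vehicle 5, the libraries with the most Cst7, and 2.40% to 4.68% in the other 12 with Cst7, although vehicle 4, with almost no Cst7, held 6.51%. With this share as a further term edgeR called 232 genes in place of 5147, 27 of them lower (0.132%), and 5 of the 8 cholesterol genes were among the lower ones. Hmgcs1 then had a slope of -0.41 ± 0.06 (adjusted p = 0.00569), Idi1 of -0.46 ± 0.08 (0.0120), Sqle of -0.44 ± 0.08 (0.0146), Cyp51 of -0.40 ± 0.06 (0.00816) and Fdft1 of -0.40 ± 0.07 (0.0130), all adjusted p-values over all genes. The calls of Lss (-0.21 ± 0.06, adjusted p = 0.151), Insig1 (-0.29 ± 0.08, adjusted p = 0.127) and Dhcr7 (-0.13 ± 0.10, adjusted p = 0.670) were lost.

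**Figure D4:**
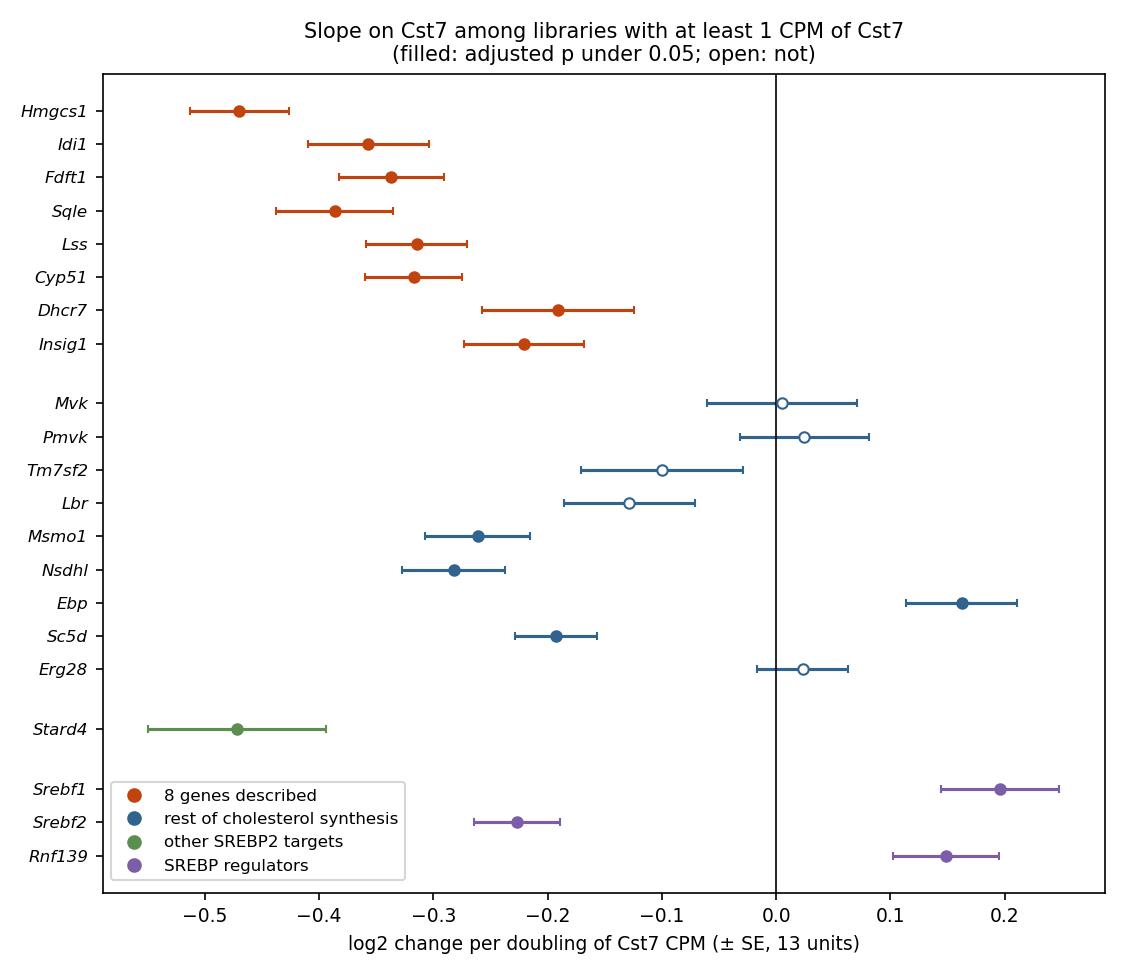
log2 change per doubling of Cst7 CPM with its SE over 13 units, for the 8 genes and the further genes of cholesterol synthesis, SREBP2 targets and regulators of SREBP that are named in the text, a selection and not the whole lists; filled points have an adjusted p under 0.05. The 8 genes all lie below 0, as does Stard4 at -0.47, while Ebp, Srebf1 and Rnf139 lie to the right with filled points, which they lose on the TPM scale.

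The rest of the pathway followed in large part. Of 15 further genes of cholesterol synthesis, 8 were lower at higher Cst7, 1 was higher and 6 did not pass, with a median slope of -0.18, where 10.4% of all genes were lower and 14.8% higher. Ebp rose by 0.16 ± 0.05 (adjusted p = 0.0252), but on the TPM scale its slope was 0.03 ± 0.05 and did not pass (adjusted p = 0.656). Mvk and Pmvk, the kinases that phosphorylate mevalonate, had slopes of 0.005 ± 0.07 and 0.02 ± 0.06 and did not pass, whereas on the TPM scale both were lower, each at -0.14, as was the median of all genes. On that scale limma called 14 of the 15 lower and 0 higher, where 38.3% of all genes were lower and 6.84% higher. With the ribosomal RNA share as a further term, 2 of the 15 were lower and 0 higher, where 0.132% and 1% of all genes were. Genes named here for their slope, beyond Srebf2 and Cyp46a1, were chosen after their values were seen.

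Of 8 other SREBP2 targets, 4 were lower and 0 higher, where 10.4% of all genes were lower and 14.8% higher. With the ribosomal RNA share as a further term 1 was lower, where 0.132% of all genes were. Stard4, a carrier that moves cholesterol between membranes, fell by 0.47 ± 0.08 (adjusted p = 0.000864). Srebf2 fell by 0.23 ± 0.04 (adjusted p = 0.000866), whereas Srebf1, whose product drives fatty acid genes more than sterol genes, rose by 0.20 ± 0.05 (adjusted p = 0.0134), a call that was lost on the TPM scale (0.01 ± 0.07, adjusted p = 0.895). In all, 2 of 9 regulators of SREBP were lower and 3 higher (10.4% and 14.8% of all genes). With the ribosomal RNA share as a further term 1 was lower and 0 higher (0.132% and 1% of all genes). On the TPM scale 4 were lower and 0 higher (38.3% and 6.84% of all genes). There Rnf139, which was among the 3 higher ones, turned to -0.08 ± 0.06.

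Several genes of sterol efflux ran the other way. Of 10 genes of liver X receptor signalling and efflux, 5 were higher and 1 lower at higher Cst7. Of 6 genes of sterol hydroxylation 3 were higher and 0 lower, where 14.8% of all genes were higher and 10.4% lower. With the ribosomal RNA share as a further term, 1 gene of each list was higher and 0 were lower (1% and 0.132% of all genes). On the TPM scale 3 and 1 were higher and 1 of each list was lower, where 6.84% of all genes were higher and 38.3% lower. Abca1, which loads cholesterol onto lipoproteins, rose by 0.54 ± 0.07 (adjusted p = 0.000206), and Ch25h, an enzyme of activated microglia and macrophages that makes an oxysterol, rose by 0.81 ± 0.11 (adjusted p = 0.000174). Cyp46a1 had a slope of -0.11 ± 0.08 (adjusted p = 0.303), and on the TPM scale it was lower at -0.26 ± 0.07 (adjusted p = 0.0112). Fatty acid synthesis was mixed, with 4 lower and 1 higher of 13, or 10 lower and 1 higher on the TPM scale, where 38.3% of all genes were lower.

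Of 10 mature myelin genes, 0 were lower and 1 was higher (10.4% and 14.8% of all genes), with a median slope of 0.06. On the TPM scale 0 passed in either direction, with a median of -0.11. With the ribosomal RNA share as a further term 0 passed, with a median of 0.29. Of 10 neuronal markers 3 were lower and 0 higher (median -0.18), where 10.4% of all genes were lower and 14.8% higher. On the TPM scale 8 were lower (38.3% of all genes). With the ribosomal RNA share as a further term, or without lemborexant 6 and vehicle 5, 0 were lower (0.132% and 0.97% of all genes). Of 10 astrocyte markers 4 were higher and 0 lower (14.8% of all genes higher), but on the TPM scale 2 were higher and 2 lower, with a median of -0.10, and with the ribosomal RNA share 0 passed. Of 11 disease-associated microglia markers other than Cst7, 11 were higher, 8 on the TPM scale (6.84% of all genes higher) and 10 with the ribosomal RNA share. With the neuronal marker score as a further term, 7 of the 8 cholesterol genes were called lower, with a median slope of -0.35, against 8.83% of all genes. That score was lowest, at -0.876, in lemborexant 7, which held 23.2 CPM of Cst7. It was next lowest, at -0.746, in lemborexant 6, which held 131 CPM of Cst7. The part of cell make-up in these slopes was not tested.

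The 8 genes varied together, unevenly. Over the 16 units, log2 CPM of the 28 pairs of genes had Pearson's r of 0.22 to 0.98, with a median of 0.77. Sqle and Cyp51 were the closest pair (r = 0.98), followed by Hmgcs1 and Sqle (r = 0.96), and Lss and Dhcr7 the most distant (r = 0.22). These are descriptions of libraries that share depth and cell make-up, with no test.

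Genes outside the 8 that were most like their mean, among 12344 genes with at least 5 CPM on average, came in part from the same pathway. Among the 10 closest, by Pearson's r over 16 units, were Tubb3 (0.96), Nsdhl (0.96), Msmo1 (0.93), Sc5d (0.92), Stard4 (0.91), Slc6a7 (0.89) and Srebf2 (0.89). Tubb3 encodes a neuronal tubulin and Slc6a7 a neuronal proline transporter. In the other direction, Srebf1 had r = -0.66.

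Reads of opposite strands may be mixed for some genes, since the strand setting is not given in the sources used here. On the GENCODE annotation Lss overlaps an antisense gene over 11268 bases, Hmgcs1 another over 6190 bases, and Fdft1 overlaps the protease gene Ctsb over 774 bases, and reads there cannot be told apart. Sqle, Dhcr7 and Insig1 overlap none.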

How the data were processed

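Total RNA of mouse cortex was sequenced from 10 lemborexant and 9 vehicle libraries, grouped by the treatment labels. Per the submitters' processing notes, the authors ran DRAGEN 3.9.3-8 and bcl2fastq with the build GRCm38. Which annotation and strand setting they used is not given in the sources used here. Per the file headers, the deposited tables hold an estimated count and a TPM value for each gene. The estimated counts deposited by the authors were rounded for the count tests, and the deposited TPM values, relative to library total and gene length, served for levels between genes and as an alternative on the scale log2(TPM + 1) or log2(TPM + 0.1), for genes with a mean TPM of at least 1. A fold change on that scale understates the change of low genes. Symbols came from GENCODE vM21, which named 55227 of 55487 identifiers.

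Treatment was tested by quasi-likelihood in edgeR 4.0.16 (R 4.3.3, TMM factors, edgeR's expression filter, robust dispersion), two-sided, with Benjamini-Hochberg adjustment over all genes tested and a threshold of 0.05. CPM values used TMM factors, and log2 CPM a prior count of 2. limma 3.58.1 and DESeq2 1.42.0 were alternatives. Libraries were paired as nearly alike where the chi-square of their counts, over genes with at least 20 reads, was under 10 per degree of freedom. A marker score is the mean centred log2 CPM of the genes of a list that passed the expression filter. The slope on log2 Cst7 CPM, its alternatives and the sum without lemborexant 1 and 10 were added after seeing the data. Both tests were run on simulated counts. The simulated libraries were drawn independently, so the check does not cover the nearly alike pairs in the treatment test.

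The 8 genes and all gene lists were chosen with earlier results of these data known. Named beside the 8 are Srebf2, Cyp46a1 and Cst7, the 3 genes with the smallest p for treatment of each list described and any past the threshold, and the 10 genes most alike; some genes under this rule are counted in their lists but not reported here. The design text speaks of triplicates, but groups follow the labels, with 10 and 9 libraries.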

Additional observations from a re-analysis of the deposited data

Results flagged for a closer look

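Dhcr7 stood at 39.65 CPM in vehicle 4, against 14.4 to 25.2 CPM in the other vehicle libraries. Its gap to the nearest of them was 0.573 of the range of the group, above Dixon's critical value for 9 libraries. The same library held little Lss, at 15.0 CPM, almost no Cst7 and 6.51% of reads on ribosomal RNA genes. Chance alone picks out about 1 in 20 groups in this way. The 8 genes and 6 further ones were examined in both treatments.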

How the results depend on the processing

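For treatment, 0 of the 8 genes passed under every alternative run except limma's voom, where 1 (Lss) did. The number of genes called over the whole table was far less stable. Against 498 it was 254 with no expression filter, 1892 by DESeq2, 2251 by voom, 118 on log2(TPM + 1), 26 on log2(TPM + 0.1) and 2137 at an adjusted p of 0.1. It was 0 with nearly alike pairs summed, also without libraries under 1 CPM of Cst7, and 818 with pairs summed but lemborexant 1 and 10 left out, a choice made after seeing the data. A covariate gave 1508 (log2 Cst7), 785 (mature myelin score), 0 (hippocampal score) and 318 (number series). It was 8 in the libraries numbered 1064 to 1602, 0 in those numbered 859 to 933 and 307 without lemborexant 7 and vehicle 7. Leaving out 1 library gave 31 (lemborexant 9) to 1274 (vehicle 8) and moved the count over 1.5 times for lemborexant 2, 4, 6, 8 and 9 and every vehicle library but vehicle 9. The causes were not tested.

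Some log2 changes, none past the threshold, turned sign. Cyp51 gave -0.017 with pairs summed, -0.041 when lemborexant 1 and 10 were also left out, and -0.016 to 0.11 with 1 library left out. Hmgcs1 gave -0.029 with pairs summed and lemborexant 1 and 10 left out. Dhcr7 gave 0.052 and 0.054 on the TPM scales. Idi1 gave 0.11 by voom, 0.13 and 0.14 on the TPM scales, 0.034 without libraries under 1 CPM of Cst7 and 0.13 with the hippocampal score, which took Insig1 to -0.056.

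For the slope on Cst7, against 5147, the genes called were 232 with the ribosomal RNA share, 945 without lemborexant 6 and vehicle 5, 2614 in the libraries numbered 1064 to 1602, 425 in lemborexant units alone and 2449 (without lemborexant 6) to 5902 with 1 unit left out. Of the 8 genes, 5 were called with the ribosomal RNA share, 4 in lemborexant units alone and 7 to 8 with 1 unit left out, and every slope stayed negative. The calls of Insig1 were lost in 5 of 30 alternatives, of Lss in 2 and of Fdft1 in 1.

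No paired analysis was made because the labels give no pairing of libraries between treatments. All 8 genes held 270 or more reads in each library.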
